A study of Mus musculus with 4 samples.

Results

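Runx2 occupancy was examined at 10 genes of the ephrin and semaphorin systems through which bone cells signal to each other, out of 22359 protein-coding genes of the mouse mm9 genome. The set comprised the ligands Efnb1, Efnb2, Sema3a and Sema4d, the receptors Ephb2, Ephb4, Plxna1 and Plxnb1, and the co-receptors Nrp1 and Nrp2. It was defined by name, with earlier results of these data known. Every Runx2 peak that overlapped by at least 1 bp a gene body (GENCODE M1 annotation) widened by 20 kb on each side was kept. These windows held 45 of the 25457 peaks at day 0, 119 of 60596 at day 9 and 77 of 40330 at day 28. Peaks of different days that overlapped were merged into regions, and 127 of the 67703 regions of the genome fell in the 10 windows. No region lay in the windows of 2 of the genes.

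Runx2 was mapped by ChIP-Seq in MC3T3-E1 cells (subclone 4), a mouse calvarial preosteoblast line of C57BL/6 origin that deposits and mineralizes a collagen matrix when given ascorbic acid and beta-glycerophosphate. Chromatin was taken from proliferating cells at day 0, from cells laying down matrix at day 9 and from mineralizing cultures at day 28, and input DNA came from day 9 cells. The 2 libraries of each day were pooled before peaks were called, so each day is represented by 1 peak list with no replicate, and no test between days could be made. Peaks show where Runx2 was detected on chromatin, and RNA was not measured in these lists.

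Ephrin-B ligands and EphB receptors are both membrane proteins, so they signal between cells in contact, forward into the receptor-bearing cell and in reverse into the ligand-bearing cell. In bone, ephrin-B2 of osteoclasts and EphB4 of osteoblasts form a known pair in which forward signalling favours osteoblast differentiation and reverse signalling restrains osteoclast formation. Semaphorins signal through plexins. Sema3A is secreted by osteoblast lineage cells, binds neuropilin-1 in complex with an A-type plexin and restrains osteoclast formation, whereas Sema4D is best known in bone as an osteoclast product that acts on plexin-B1 of osteoblasts and restrains bone formation. Runx2, the master transcription factor of the osteoblast lineage, recognizes the core sequence TGTGGT.

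The bound DNA was first examined for this core. A match is a description of the sequence and does not show that Runx2 sits on it. Of the 127 regions, 32 held TGTGGT on either strand within 50 bp of the centre of their highest-ranked peak. They lay at 7 of the 10 genes, with 9 at Sema4d, 8 at Nrp2, 7 at Ephb2, 4 at Plxna1, 2 at Nrp1 and 1 each at Ephb4 and Plxnb1. The regions of Efnb1, Efnb2 and Sema3a had no copy within this distance. The site in the highest-ranked day 9 region with a central core is shown for each of the 7 genes, as 30 bases of mm9 read 5′ to 3′ along the strand that carries the core, with the core in capitals.
Sema4d, intron 2, chr13:51843698-51843727, minus strand, bound at days 0, 9 and 28: cacactcttcttTGTGGTttgaactcattt
Ephb2, intron 3, chr4:136267884-136267913, minus strand, bound at days 9 and 28: aactgggccattTGTGGTcaggtctctggc
Ephb4, upstream, chr5:137780640-137780669, plus strand, bound at days 9 and 28: cctgctaccctcTGTGGTggccccacccgg
Plxna1, upstream, chr6:89319543-89319572, plus strand, bound at day 9: acagccacaggcTGTGGTtcatcactgacc
Plxnb1, intron 1, chr9:108999516-108999545, minus strand, bound at day 9: gaggtaaccctgTGTGGTagatgaaatgga
Nrp1, intron 10, chr8:131000262-131000291, plus strand, bound at days 0, 9 and 28: ctctgactgtacTGTGGTaaaactgccacc
Nrp2, intron 2, chr1:62773604-62773633, minus strand, bound at day 9: tgtgtatgtgtgTGTGGTatgtgtggtgta
The last of these lies in a run of TG repeats, which spells parts of the core many times over. Another 3 sites are shown because of where or when they were bound. The first lies in a region centred at -26 bp from an internal start site of Sema4d, the second in a region of Nrp1 bound at day 0 alone and the last in a region of Nrp2 bound at day 28 alone.
Sema4d, internal start site, chr13:51830147-51830176, minus strand: atttgtggtgtcTGTGGTgaggtgagcaag
Nrp1, intron 8, chr8:130988155-130988184, minus strand: tcctaaggatgtTGTGGTgtctggaaaggt
Nrp2, upstream, chr1:62743697-62743726, plus strand: cttcccttttccTGTGGTttccttttttgg

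Each gene had at least 1 Runx2 peak on each day, where 65% of all protein-coding genes had a peak in their window at day 0, 77% at day 9 and 71.2% at day 28. The number of peaks differed widely among the genes. Ephb2 went from 6 peaks at day 0 to 26 at day 9 and 10 at day 28. Plxna1 had 5, 21 and 8 peaks on the same days, and Sema4d had 3, 17 and 11. These 3 genes thus had their maximum at day 9. Plxnb1 showed the same order at lower numbers, with 2, 9 and 4 peaks, and Efnb2 had 1, 3 and 1. Nrp2 rose from 5 to 17 and stayed at 18 peaks at day 28, whereas Efnb1 went from 2 to 5 and stayed at 5. Sema3a had 7, 8 and 7 peaks and Ephb4 had 3, 4 and 5. Nrp1 was the only member with fewer peaks at day 9 than at day 0, with 11, 9 and 8. More peaks at day 9 than at day 0 were thus found at 9 of the 10 genes, against 60.3% of all genes, and fewer at 1, against 3.98%. Ephb4 and Nrp2 had more peaks at day 28 than at day 9, as had 6.58% of all genes. The windows of the set had a median length of 109.4 kb, against 55.4 kb for all genes. A longer window has more room for peaks, and these shares were not matched for length.

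**Figure D1:**
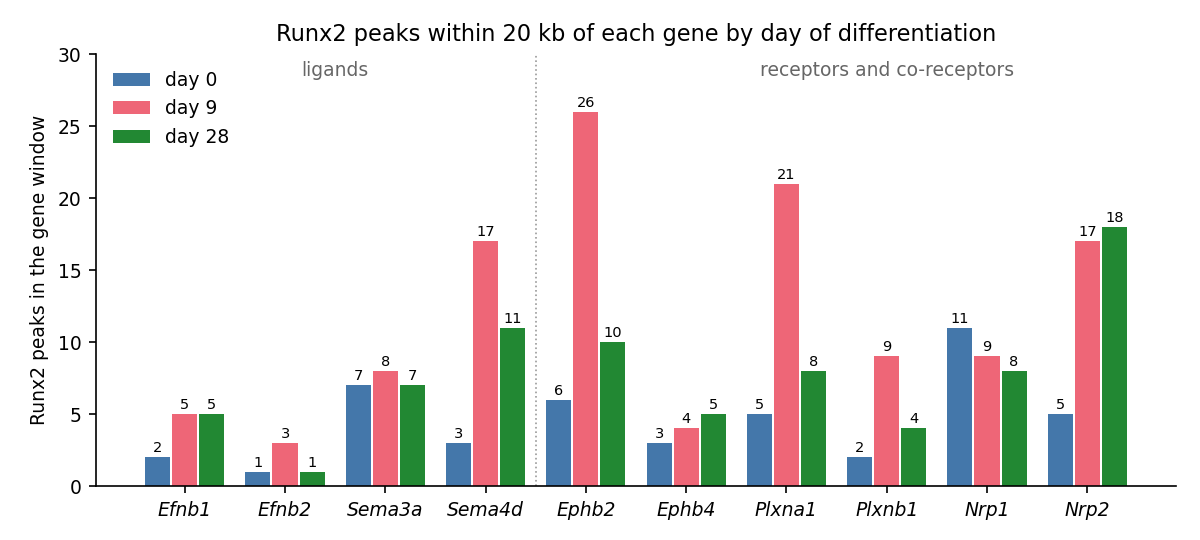
Number of Runx2 peaks in the window of each gene (gene body and 20 kb on each side) at day 0, day 9 and day 28, with ligands left and receptors and co-receptors right of the dotted line. Bars for day 9 are the highest at 6 of the 10 genes, are tied with day 28 at Efnb1 and are exceeded by day 28 at Ephb4 and Nrp2 and by day 0 at Nrp1.

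Summed over the set, peaks rose 2.64-fold from day 0 to day 9 (95% interval 1.86 to 3.81, counting error only), against 2.38-fold for the whole lists, and the day 28 number was 0.647 of that at day 9 (0.479 to 0.869), against 0.666. Both intervals contain the value of the whole lists. The ligand windows held 13, 33 and 24 peaks and the receptor and co-receptor windows 32, 86 and 53. The higher day 9 numbers depended on the length of the lists. When each list was limited to its 25457 highest-scoring peaks, the size of the day 0 list, which sets the ratio of the whole lists to 1, the set had 45 peaks at day 0 and 41 at day 9. More peaks at day 9 than at day 0 were then left at 4 of the 10 genes (Sema4d with 3 and 6, Ephb2 with 6 and 9, Efnb1 with 2 and 3, Nrp2 with 5 and 6), against 22.9% of all genes. Plxna1 had 5 on both days, and Efnb2, Ephb4 and Plxnb1 also had equal numbers. Sema3a (7 and 2) and Nrp1 (11 and 4) had fewer at day 9, against 20.9% of all genes. The lists hold no read counts, so the depth behind each peak is not known from them. By the raw read totals that the study lists, day 0 was sequenced most deeply although its list is the shortest.

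Window length also differed, from 52.9 kb at Efnb1 to 517 kb at Sema3a. Per 100 kb, the day 9 density was highest at Plxna1 (24.3 peaks, percentile 98.5 of all genes), followed by Plxnb1 (14.0, percentile 90.8), Sema4d (12.8, percentile 89.0), Ephb2 (11.4, percentile 86.0) and Nrp2 (10.9, percentile 85.0). Sema3a, at 1.55 peaks per 100 kb (percentile 30.5), was the sparsest, and Efnb2 (3.58, percentile 50.6) stood in the middle of all genes. At day 0 the order was different, with Nrp1 (5.90 peaks per 100 kb, percentile 88.0) and Plxna1 (5.79, percentile 87.6) at the top.

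**Figure D2:**
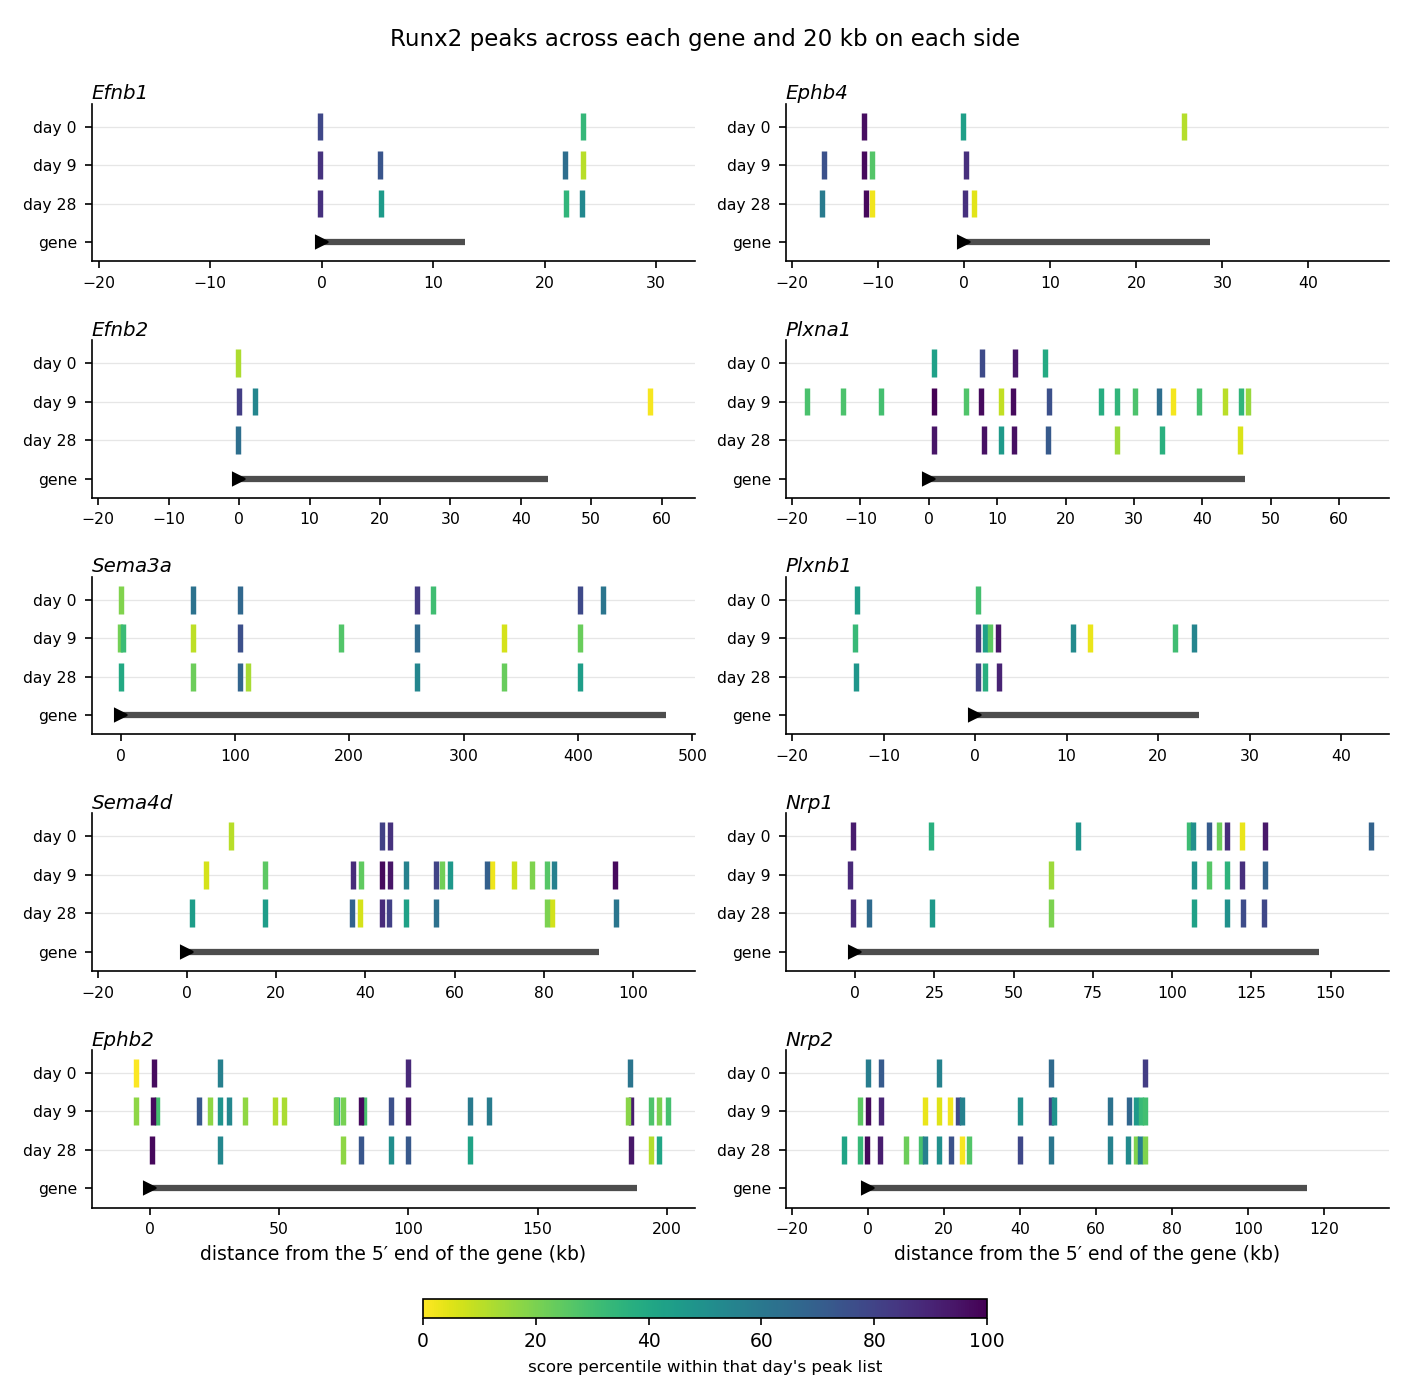
Position of Runx2 peaks along each gene, as the distance of the peak centre from the 5′ end in kb (arrowhead), on separate rows for day 0, day 9 and day 28, with the gene body as a bar. Each tick is the highest-scoring peak of a region on that day, coloured by its score percentile within that day's list. Day 9 ticks are spread along Ephb2, Plxna1 and Sema4d, with a gap in Ephb2 from 131 to 185 kb. The day 0 ticks of Nrp1 gather more than 100 kb into the gene.

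Peak strength was read from the score in the lists, which is the −log10 p-value of MACS multiplied by 10, has a minimum of 100 and is tied at 3100 for many of the strongest peaks. Since the score depends on depth, it is set between days only as a percentile within the list of that day (the percent of peaks that score lower, with ties given their middle rank). A percentile also depends on which other peaks are in the list. Of all regions of the genome bound on all 3 days, 75.5% ranked higher at day 9 than at day 0, with a median shift of 15.6 points. From day 9 to day 28, 33.4% ranked higher. Changes of rank at single genes below are to be read beside these shares. A region with several peaks on 1 day is described by the highest-scoring of them. The tied score of 3100 corresponds to percentile 97.4 at day 9 and 97.8 at day 28. Some peaks score above the tie, up to 3233 on each day. Whether these are stronger than the tied peaks is not known from the lists. Percentiles above that of the tie are therefore not read as greater strength.

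The ephrin ligands carried few regions, and the strongest lay over their start sites. At Efnb1, which encodes ephrin-B1, the promoter region (chrX:96330894-96332571, centred at -146 bp from the start) scored 585, 1350 and 1479 at days 0, 9 and 28, or percentiles 78.3, 85.4 and 86.0. It was high on each day. A region in intron 1, 5.26 kb downstream of the start, and one 21.9 kb downstream were bound at days 9 and 28, and the fourth region, 23.4 kb downstream, was bound on all 3 days. At Efnb2, encoding ephrin-B2, the promoter region (chr8:8660377-8662291) was among the weaker day 0 peaks with a score of 125 (percentile 12.2) and scored 1078 at day 9 (percentile 81.8) and 544 at day 28 (percentile 63.7). The peak widened from 881 bp at day 0 to 1621 bp at day 9 and 1915 bp at day 28. The other 2 regions of Efnb2, in intron 1 and 58.3 kb from the start, past the end of the gene, were seen at day 9 alone with percentiles 54.0 and 1.40.

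The EphB receptors differed from each other in number of regions but both had strongly bound sites. Ephb2, a receptor tyrosine kinase for B-type ephrins, had 24 regions, the most of the set. The region over its promoter and the start of intron 1 (chr4:136389455-136392604) scored 1816, 3100 and 3100, or percentiles 97.0, 97.4 and 97.8. At days 0 and 9 it consisted of 2 peaks. The one that scored high was centred 1.71 kb (day 0) and 1.40 kb (day 9) inside the gene, while the one over the start site itself scored only 101 at day 0 (percentile 0.230) and 753 at day 9 (percentile 75.6). At day 28 a single peak of 3142 bp covered both. Intron 3 held 9 of the 24 regions, including one that was absent at day 0, reached the tied score of 3100 at day 9 (percentile 97.4) and ranked at percentile 73.1 at day 28, with a score of 797 (chr4:136309933-136310742). A second region in this intron (chr4:136291505-136292412) scored 884, 2414 and 770, with percentiles 88.6, 92.9 and 72.3. Another strong region lay over the last exon, exon 16 (chr4:136204906-136206482), and ranked at percentiles 61.1, 92.7 and 93.4. Of the 24 regions, 13 were seen at day 9 alone, and 12 of these were at or below percentile 58.5.

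Ephb4, the receptor of ephrin-B2 on osteoblasts, had 6 regions. The strongest was not at the start site but 11.5 kb upstream (chr5:137779372-137780257), with scores of 1638, 3100 and 3100 and percentiles 96.3, 97.4 and 97.8. Its length of 886 bp contains 1 copy of TGTGGT, which is not within 50 bp of the centre, and the GC content of the central 200 bp was 44.8%. This region was nearer to the start of Slc12a9, a cation-chloride cotransporter family gene, from which its centre lay -5051 bp. To which gene it belongs was not tested. The site of Ephb4 printed above belongs to the adjacent weaker region 10.7 kb upstream (percentiles 26.7 at day 9 and 2.01 at day 28). That region was also nearer to the start of Slc12a9, at -5813 bp. Over the Ephb4 start site, the region chr5:137790768-137792039 scored 236, 1455 and 1490, rising from percentile 43.8 to 86.5 and 86.1. A region further upstream, bound at days 9 and 28, was centred -209 bp from the start of Slc12a9 and so sits at the promoter of this neighbour. Without the flanks Ephb4 had fewer peaks at day 9 than at day 0, so the direction of its small change depended on the window.

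Sema3a had 11 regions spread over 517 kb, and its highest rank at day 9 was lower than that of any other member. That region lay in intron 1, 104 kb from the 5′ end (chr5:13229054-13230436), with scores of 415, 755 and 630 and percentiles 66.6, 75.7 and 67.6. The annotation gives Sema3a 7 start sites. The most 5′ of them, of transcript Sema3a-201 with a coding length of 771 bp, lay under a weak region bound on all 3 days (chr5:13125153-13126301; scores 141, 136 and 243, percentiles 19.0, 21.2 and 39.6). The transcripts with the longest coding lengths, Sema3a-001 and Sema3a-002 with 2316 bp, start 273.7 and 271.2 kb further along. A region bound at day 0 alone (chr5:13398433-13399758), with a score of 178 (percentile 30.5), overlapped the promoters of 5 of the 6 internal start sites, including that of Sema3a-001 but not that of Sema3a-002. No peak passed the threshold there at days 9 and 28.

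Several distal Sema3a regions ranked higher at day 0 than later. The region nearest upstream of the internal start sites (chr5:13383816-13385190) fell from percentile 83.0 to 65.5 and 54.2. One in intron 7 of Sema3a-002 (chr5:13526766-13527684) went from 77.7 to 22.8 and 44.2, and the intron 1 region chr5:13188720-13189704 went from 62.5 to 9.79 and 22.6. Another region, 422 kb from the 5′ end, was seen at day 0 alone at percentile 61.3. In lists of equal size Sema3a had 2 peaks at day 9 against 7 at day 0, although it had 1 more in the full lists.

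Sema4d, the ligand of plexin-B1, had no peak on any day in the promoter of its 5′ start sites, unlike all the other members. The nearest region there was bound at day 28 alone, with a score of 283 (percentile 44.9), and its centre lay 1.12 kb inside the gene in intron 1. A day 9 peak of 396 bp (chr13:51829960-51830355; score 240, percentile 46.6) lay over an internal start site, that of transcript Sema4d-003, which has the same coding length of 2583 bp as the transcripts from the 5′ end. This peak held 2 copies of the core within 50 bp of its centre, and 1 of these is marked in the site printed above.
The main binding at Sema4d was in intron 2. Adjacent regions 43.7 and 45.4 kb from the 5′ end were bound on all 3 days. The first (chr13:51844782-51846114) scored 637, 3100 and 1679, with percentiles 80.9, 97.4 and 88.1, and the second (chr13:51843310-51844423) scored 779, 2761 and 1153, with percentiles 85.9, 94.2 and 81.1. Both ranked highest at day 9. Another 8 regions of Sema4d were bound at days 9 and 28 but not at day 0, and 7 were seen at day 9 alone.

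The region at the far end of the Sema4d window is shown for its sequence. It lies past the end of Sema4d, within an intron of the gene Gm15440 (chr13:51792372-51793708), had no day 0 peak, reached the tied score of 3100 at day 9 and scored 484 (percentile 60.6) at day 28. It contains 13 copies of TGTGGT, all on the plus strand, in a stretch of 389 bp that ends before the centre of the peak. As many copies or more were found in 803 of all regions (1.19%), while the median region held 1. The densest 30 bases hold 3 copies, in capitals, of which the last 2 overlap by a T.
Sema4d, downstream, chr13:51792908-51792937, plus strand: gcctggtataTGTGGTatgTGTGGTGTGGT

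Plxna1, an A-type plexin that transduces Sema3A signals when joined to a neuropilin, had a promoter peak that scored above the tied 3100 at day 9. The promoter peak of Nrp2 had the tied score on that day, so which of them was stronger is not known. In the Plxna1 promoter region (chr6:89310150-89313502) the peak over the start site scored 145 at day 0 (percentile 20.6), beside a second one in intron 1 that scored 232 (percentile 43.1). It scored 3160 at day 9 (percentile 99.8) and 2593 at day 28 (percentile 94.2), and single peaks of 3353 and 3044 bp then covered the region. A further pair of strong regions followed, in intron 3 (chr6:89299188-89300939; percentiles 93.8, 97.4 and 95.9) and over exon 3 (chr6:89303787-89305664; percentiles 77.7, 97.4 and 95.6). Plxna1 has a second start site 4.90 kb inside the first, with the same coding length of 5682 bp, and its promoter had a peak at day 9 alone (percentile 27.6). Of 18 regions, 10 were seen at day 9 alone and their percentiles were between 1.58 and 37.5, so they were in the lower part of the day 9 list.

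Plxnb1, the receptor of Sema4D, had 9 regions. Its start-site region (chr9:108997744-108998690) scored 175, 1254 and 1128, rising from percentile 29.7 to 84.3 and 80.7. The strongest site was 2.50 kb downstream in intron 1 (chr9:109000027-109001052), where no day 0 peak was found and the scores were 2835 at day 9 and 1946 at day 28 (percentiles 94.5 and 90.5). The 4 regions in the rest of the gene, from intron 13 to exon 38, were all seen at day 9 alone. The second of the 2 day 0 peaks of Plxnb1 lay 13.0 kb upstream, -46 bp from the start of Ccdc51, and ranked between percentiles 32.5 and 47.6 on the 3 days.

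The neuropilins are co-receptors for secreted semaphorins. Nrp1 had 13 regions, of which 4 were seen at day 0 alone, more than at any other member. Its promoter region (chr8:130880579-130884229) scored 1120, 1695 and 1677, or percentiles 92.4, 88.7 and 88.1. A single broad peak of 3605 bp at day 0 and of 3302 bp at day 28 was split into 3 peaks at day 9, and the one over the start site then scored 585 (percentile 70.6). From intron 8 to intron 12 lay 7 regions, of which 4 ranked lower at day 9 than at day 0, 2 had no day 9 peak and 1 ranked higher. The region in intron 10 (chr8:130999823-131000779), whose site is printed above, scored 835, 181 and 328 and went from percentile 87.5 to 35.4 and 49.6. In intron 12 (chr8:131011625-131012629) the percentiles were 93.5, 68.6 and 78.7, and in intron 9 (chr8:130993369-130995510) they were 71.4 at day 0 and 26.6 at day 9, with no peak at day 28. Between these, a region in intron 11 (chr8:131004584-131005703) did the reverse, with scores of 106, 1456 and 953 and percentiles 3.19, 86.5 and 77.0. Lower and higher ranks at day 9 were thus found side by side in the same stretch of Nrp1.

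Nrp2 had 20 regions, and 9 were bound at days 9 and 28 and 4 at day 28 alone, more than at any other member in both classes. The promoter region (chr1:62748917-62750450) scored 331 at day 0 (percentile 57.9) and 3100 at days 9 and 28. A broad region in intron 1, 3.13 kb from the start, rose from percentile 71.6 to 90.2 and 92.1 (chr1:62751452-62754532). Some intronic regions ranked higher at day 28 than at day 9, such as one in intron 2 (chr1:62771273-62772235) that went from a score of 103 (percentile 2.29) to 856 (percentile 74.6), and one in intron 3 (chr1:62789425-62790313) that went from percentile 50.7 to 78.3. The opposite was seen in intron 12 (chr1:62822456-62823161), where percentiles were 82.3, 30.4 and 19.4.

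Counted over genes, a promoter peak (from 1000 bp before to 150 bp after any annotated start site) was present at 9 genes at day 0, 10 at day 9 and 9 at day 28. Among all protein-coding genes the shares were 42.7%, 51.6% and 50.1%. At all 3 days it was present at 9 of the 10, against 41.5% of all genes, with Sema4d the exception. Because the 10 genes were chosen with earlier results of these data known, the difference from all genes is a description and was not tested. The 10 genes have 30 start sites between them, of which 23, 20 and 18 had a promoter peak on the 3 days, since 5 internal start sites of Sema3a had a peak at day 0 alone and 1 each of Sema4d and Plxna1 at day 9 alone. Many of these peaks were near the threshold at day 0. With a p-value of 1e-20 required in place of 1e-10, promoter peaks were left at 4 genes at day 0 (Efnb1, Ephb4, Nrp1 and Nrp2), at 9 genes at day 9 and at 9 at day 28, where the shares of all genes were 33.7%, 47.2% and 46.7%. With 1e-50 they were left at 2 genes at day 0 (Efnb1 and Nrp1) and at 8 on each of the later days, where the shares of all genes were 14.5%, 38.6% and 37.9%.

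**Figure D3:**
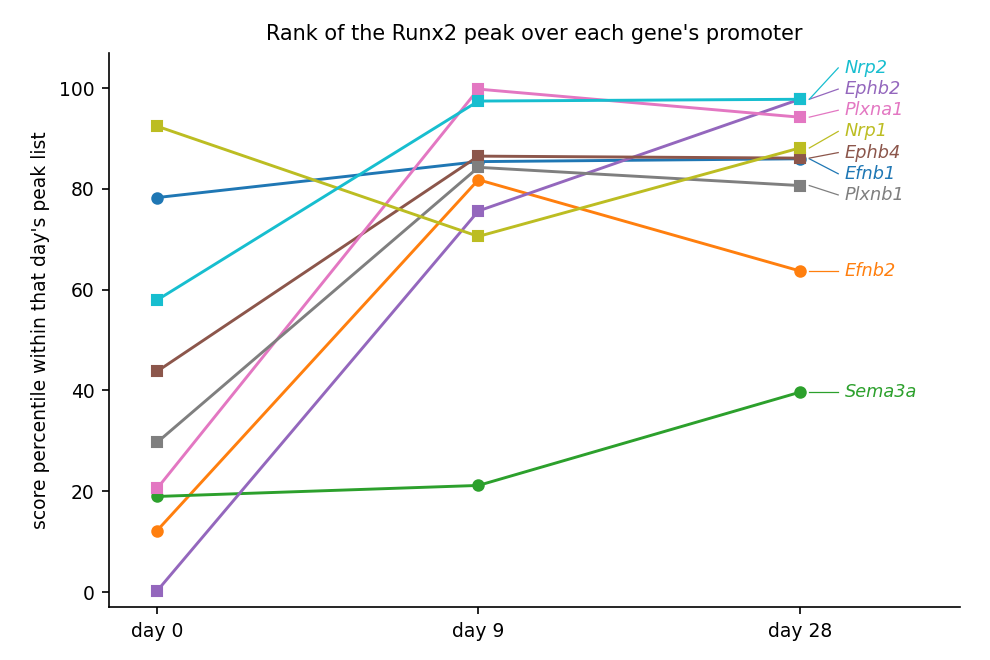
Score percentile, within the list of each day, of the peak that overlaps the promoter in the region bound on all 3 days, for the 9 genes with such a peak on all 3 days (circles are ligands and squares are receptors and co-receptors). From day 0 to day 9 the line rises at 8 genes, from 0.230 to 75.6 at Ephb2 for example, and falls at Nrp1, from 92.4 to 70.6. Among all regions bound on all 3 days, at promoters or not, 75.5% ranked higher at day 9 than at day 0 by their highest-scoring peak. Sema3a, drawn for its 5′ start site, goes from 19.0 to 21.2 and 39.6, below its day 0 peak at the internal start sites (30.5) until day 28.

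By the days at which they were bound, the regions of the set had shares near those of the genome. All 3 days were shared by 32 regions (25.2%, 95% interval 17.9 to 33.7), against 27.4% of all regions. Days 9 and 28 were shared by 35 (27.6%, interval 20.01 to 36.2, against 21.1%), and 41 were bound at day 9 alone (32.3%, interval 24.3 to 41.2, against 34.5%). Day 0 alone and day 28 alone accounted for 8 regions each (6.30%), against 5.60% and 7.59%. Each of these intervals contains the genome value.

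**Figure D4:**
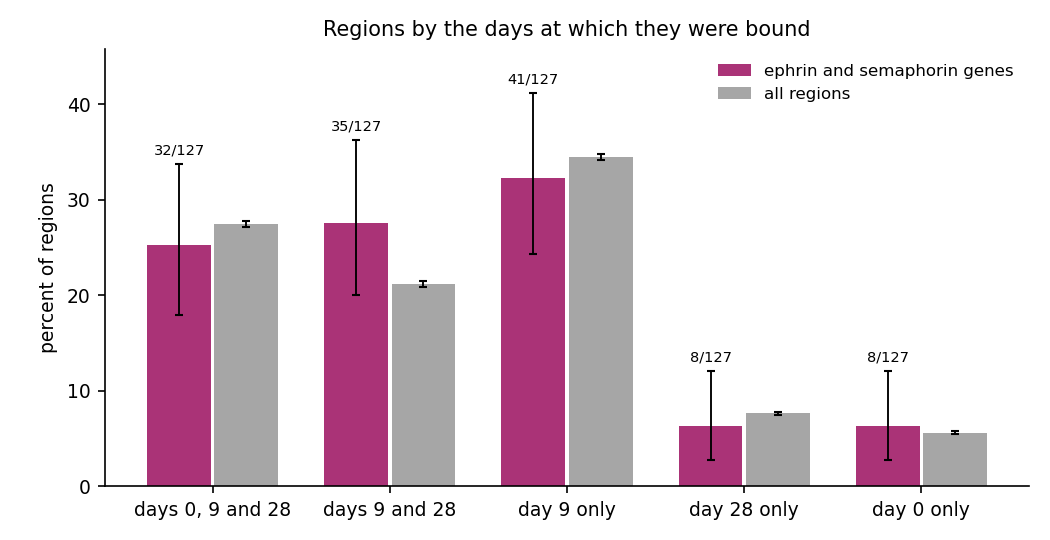
Percent of regions by the days at which they were bound, for the 127 regions of the ephrin and semaphorin genes and for all 67703 regions. Error bars are exact 95% binomial intervals and the numbers give regions in the class of all regions of the set. Regions bound at days 0 and 9 (2) or days 0 and 28 (1) are not drawn. In each class drawn the genome value lies within the interval of the gene set.

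The members differed from one another. Sema3a and Nrp1, grouped after their values were seen, held 18 of the 45 day 0 peaks of the set (40.0%) but 17 of 119 at day 9 (14.3%) and 15 of 77 at day 28 (19.5%). They accounted for 6 of the 8 regions bound at day 0 alone and for 2 of the 41 bound at day 9 alone. Among regions bound on all 3 days, the day 9 percentile exceeded the day 0 percentile at 20 of 32 regions of the set (62.5%, median shift 4.00 points). In the genome the share was 75.5% of such regions (median 15.6 points). Within the set, the day 9 percentile was the higher at 3 of 10 regions of this pair (median -10.7 points). At the other 8 genes it was the higher at 17 of 22 regions (median 11.3 points). The DNA of the pair was also poorer in GC. The median GC content of the central 200 bp was 44.8% for Sema3a regions and 45.3% for Nrp1 regions, and between 50.2% (Nrp2) and 66.2% (Efnb2) for the others. The whole windows of Sema3a and Nrp1 had 36.0% and 42.0% GC. In the genome as a whole, the regions had a median of 53.2% GC. By class it was 46.8% at day 0 alone, 47.3% at days 0 and 28, 49.3% at day 28 alone and 51.2% at days 0 and 9. It was 53.2% at day 9 alone, 53.7% at days 9 and 28 and 58.2% on all 3 days. The part of base composition in the ranks was not tested.

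The core sequence TGTGGT lay within 50 bp of the centre in 25.2% of the 127 regions (interval 17.9 to 33.7) and in 24.7% of all regions, against 8.66% and 7.31% in flanks 450 to 550 bp away. It was found in 3 of the 32 regions bound on all 3 days (9.38%, interval 1.98 to 25.0), in 12 of the 35 bound at days 9 and 28 (34.3%, interval 19.1 to 52.2) and in 14 of the 41 bound at day 9 alone (34.1%, interval 20.1 to 50.6). In the genome these shares were 14.5%, 27.3% and 32.3%. Of the regions centred within 1 kb of a start site, 2 of 17 had the core (11.8%), and 30 of the other 110 did (27.3%), against 6.82% and 28.6% of all regions. The intervals of the gene set overlap one another and contain the genome values.

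**Figure D5:**
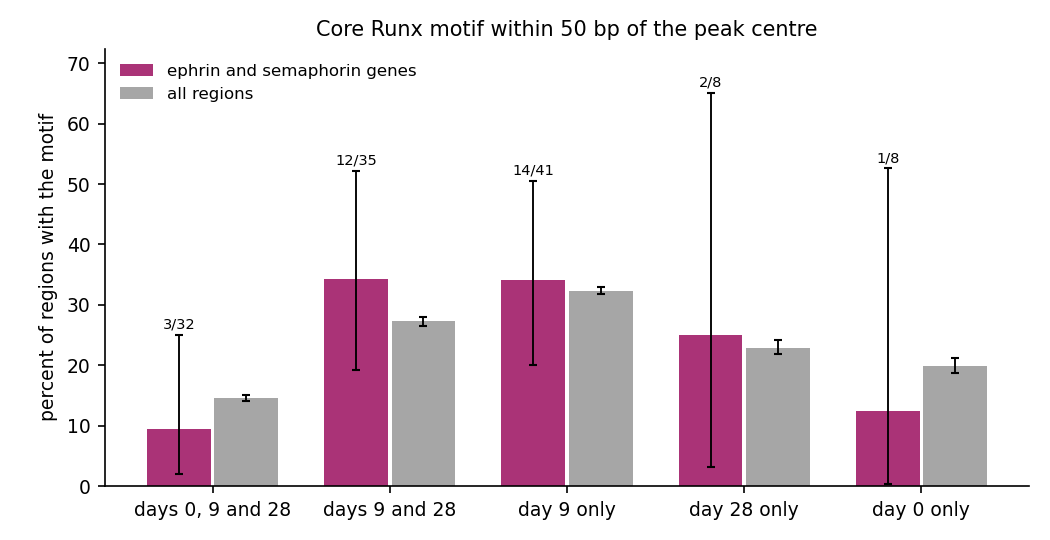
Percent of regions with TGTGGT on either strand within 50 bp of the centre, by the days at which they were bound, for the ephrin and semaphorin genes and for all regions. Error bars are exact 95% binomial intervals and the numbers give regions with the core of all regions of the class in the gene set. The share in the gene set is lowest for regions bound on all 3 days (9.38%) and highest for those bound at days 9 and 28 (34.3%), with wide intervals.

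After the core, the next base in the 32 sites of the set was T in 9, C in 8, G in 10 and A in 5, and T was the most frequent one among all 16691 regions with a central core (34.0%). Motifs of other factors were rare. The AP-1 sequence TGANTCA lay within 50 bp of the centre in 3 regions (2.36%, against 4.22% of all), the TEAD sequence GGAATG in 7 (5.51%, against 6.26%), and the CRE sequence TGACGTCA in none of 127, for which the upper limit of the exact interval is 2.86% (against 0.238% of all). All were searched on both strands.

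Most regions of the set, 92 of 127 (72.4%), were centred in introns, 12 in exons, 8 upstream within 20 kb of a start site, 6 in promoters, 8 in intergenic DNA and 1 at a transcript end. Since the windows were drawn around gene bodies, the larger share of introns than in the genome (42.7%) was built in. Peaks of the set were about as wide as others, with medians of 908, 554 and 743 bp on the 3 days. By score, the typical member peak ranked above the middle of the day 0 list (median percentile 57.9) but below that of the day 9 list (37.5). In the day 28 list it ranked close to the middle (50.1). The median score of the member peaks in the day 9 list was 190, against 265 for the whole list, so the strong day 9 regions described above are not typical of the set.

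The same counts were made for related genes. Among 43 other ephrin, Eph receptor, semaphorin and plexin genes, 33 had more peaks at day 9 than at day 0, but only 12 (27.9%) had a promoter peak on all 3 days, against 9 of the 10 members. The median number of day 9 peaks was 6, against 9 for the members and 2 for all protein-coding genes, and per 100 kb it was 5.68, 10.2 and 3.49. Plxnd1, Epha2 and Efna5 had the most regions, with 21, 20 and 18, close to those of Plxna1 and Nrp2. Epha3, Epha5 and Epha7 had no peak in any list. Of 16 genes that carry the signal inside the cell, among them Rhoa, Rac1 and Rock2, 13 had a promoter peak on all 3 days and 13 had more peaks at day 9 than at day 0, and their median was 5 peaks at day 9. For 5 osteoblast marker genes, Runx2 targets that serve as a reference, day 9 peaks were denser (median of 26.4 per 100 kb), and 1 of the 5 had a promoter peak on all 3 days. Bglap2, which encodes osteocalcin, had 0, 12 and 10 peaks, and Alpl, which encodes alkaline phosphatase, had 6, 25 and 22. Plxna1, at 24.3 peaks per 100 kb, was the only member near that density. It was not alone among related genes. In the wider family Efna2 (27.7), Epha2 (26.4), Plxnd1 (26.2), Sema3b (25.2) and Plxnb2 (24.5) were as dense at day 9.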

How the data were processed

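Chromatin bound by Runx2 in MC3T3-E1 cells was sequenced as 36-base single reads by the authors, who mapped reads to mm9 with Bowtie (0.12.8), pooled the 2 libraries of each day, called peaks with MACS (1.4.1, default settings, p-value threshold 1e-10) and deposited the peaks of each day as 1 list. The deposited score is the −log10 p-value multiplied by 10. Input libraries were not analysed here, and the lists hold no read counts. Overlapping peaks (at least 1 bp) were merged into regions with Python (3.11.15) and NumPy (2.4.6). Genes were the 22359 protein-coding genes of GENCODE M1, sequence came from NCBIM37 (the mm9 build), and exons and introns were numbered on the transcript with the longest span. Exact 95% binomial intervals (SciPy 1.17.1) cover counting error only. With 1 list per day no test was run. The code was tested on simulated peaks.

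The 10 genes and the lists were chosen with earlier results of these data known. Named singly were the region at each start site and the highest-ranked day 9 region of each member, the 3 richest and the unbound genes of the wider family, and neighbours with a start within 1 kb. The sites printed were those of the highest-ranked day 9 region with a central core. Other regions, the last 4 sites and the pairing of Sema3a with Nrp1 were chosen after their values were seen. So were Rhoa, Rac1, Rock2, Bglap2, Alpl, Efna2, Sema3b and Plxnb2.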

Additional observations from a re-analysis of the deposited data

How the results depend on the processing

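Of 139 recomputed values, 98 kept their direction and about their size, 34 moved and 7 changed direction. Counts moved when they changed by more than 1.5 times, and shares and the ratio when they left their 95% interval. The difference of a single gene moved when it became 0, or when it changed by over 50% and by more than 1 peak. A stricter p-value lowered the counts, with 14, 35 and 27 member peaks at days 0, 9 and 28 and 40 regions at 1e-50, and with 59 peaks at day 9 and 76 regions at 1e-20. The ratio of day 9 to day 0 peaks was 1.84 at 1e-20. With equal numbers of top-scoring peaks it was 0.911, with 41 peaks at day 9 and 72 regions, where the whole lists have a ratio of 1 by construction. Promoter peaks at day 0 remained at 4 genes (1e-20) and 2 genes (1e-50). The core TGTGGT was found in 44.1% of regions within 100 bp of the centre and in 73.2% anywhere in the region.

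Peaks at day 9 minus day 0 changed sign at Sema3a (-3 at 1e-20, -1 at 1e-50 and -5 with lists of equal size, against 1), at Ephb4 (-1 for the gene body alone and -1 with flanks of 10 kb, against 1) and at Nrp1 (1 at 1e-50, against -2). With lists of equal size the difference was 0 at Plxna1 (against 16), Plxnb1 (against 7), Efnb2 (against 2) and Ephb4 (against 1) and -7 at Nrp1, and it stayed above 0 at 4 genes, Sema4d, Ephb2, Efnb1 and Nrp2. The share of regions bound on all 3 days moved by less than its interval under the alternatives run. Leaving out a library was not possible because the 2 libraries of a day are pooled in 1 list. No paired analysis was possible because the result comes from no test and each day has 1 list.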
